A study of Mus musculus with 18 samples.

Results

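In the frontal cortex of newborn mice, 3 double mutant sums were set against 3 control sums over all genes. Each sum added the raw fragment counts of the Orbital, Medial and Dorsal libraries that share a title prefix, a genotype and the first of their index names, so that 6 sums took up all 18 of the 18 libraries. The double mutants (dKO) were mutant for Rxrg and Rarb, and the controls are labelled only as control. All tissue came from brains at postnatal day 0, frozen before dissection. The study's text names the dissected areas as medial frontal, motor and orbitofrontal, while the labels call the regions Medial, Dorsal and Orbital. The alleles, the altered exons, any Cre driver, the strain, litter and sex of the pups, and their number are not given in the labels. Nor do they say that the libraries of a sum share a brain. The p-values below therefore describe the spread among these sums, part of which may be technical. Adding the regions weights a gene by the region where it is most abundant and leaves 1 value per sum, which keeps libraries that may share a brain from counting as separate replicates.

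Retinoic acid is a small molecule made from vitamin A that enters the nucleus and binds retinoic acid receptors. These act in pairs with retinoid X receptors on short repeated DNA elements, and their own genes and those of enzymes that degrade retinoic acid are among their classical targets. In the developing forebrain, retinoic acid is known for roles in neuronal differentiation and in the striatum, and it is made in the meninges around the cortex.

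The sums held 164047254, 99880062 and 98251704 fragments for dKO 1, 2 and 3, and 255567003, 94604346 and 96879281 for control 1, 2 and 3. Sum 1 of each genotype has the title prefix RAR and the other 4 sums have RXR. A region gave 27.6% to 39.2% of the fragments of a sum. Chi-square per degree of freedom between sums of 1 genotype was 43.3 to 174 over all genes, where counting error alone gives values near 1. Xist and the Y-linked gene Ddx3y placed dKO 1 and 3 as female, and dKO 2 and all 3 control sums as male. Genotype and sex are thus only partly separable, and fits with sex as a term are given where they change a result. As a check of the tissue, all 15 markers of cortical excitatory neurons were measured. Their summed level was 7575, 8213 and 7456 CPM (fragments per 1000000 on scaled totals) in dKO sums, against 9102, 8837 and 6575 CPM in control sums.

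Of 20083 genes tested by edgeR's quasi-likelihood test with the title prefix as a covariate, 5 passed a Benjamini-Hochberg adjusted p of 0.05 (0.0249%), 4 higher (0.0199%) and 1 lower (0.00498%) in dKO. At an unadjusted p under 0.05, 791 genes were higher in dKO (3.94%) and 1023 lower (5.09%). In 1137 genes every dKO sum lay above every control sum (5.66%), and in 1515 every dKO sum lay below (7.54%). The median log2 fold change over all genes was -0.03, with 46.5% of genes positive and 53.5% negative. The count of 5 depended on the tool: DESeq2 called 209 genes higher (1.08%) and 150 lower (0.777%), and all 5 were among them. A fit of the 18 libraries with the sum as a random block called 22 higher (0.132%) and 20 lower (0.12%).

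The targeted genes were read first. Rarb (ENSMUSG00000017491, chr14:16430839-16819156 of GRCm38, minus strand) encodes retinoic acid receptor beta and had 3.38, 2.29 and 1.91 CPM in dKO sums 1, 2 and 3, against 5.11, 8.002 and 5.56 CPM in control sums 1, 2 and 3. All dKO sums lay below all control sums, with the narrowest gap between the pair with the prefix RAR. The log2 fold change was -1.32 (SE 0.313, adjusted p = 0.365 by edgeR's quasi-likelihood test). Rxrg (ENSMUSG00000015843, chr1:167598384-167639623, plus strand) encodes retinoid X receptor gamma and had 1.56, 1.53 and 0.493 CPM in dKO sums, against 2.14, 18.6 and 3.46 CPM in control sums. Here too the groups did not overlap, and control 2 stood far above the other controls. The log2 fold change was -2.50 (SE 0.887, adjusted p = 0.479), and it was -1.23 without control 2. The log2 difference within the prefix RAR was -0.59 for Rarb and -0.44 for Rxrg, and within the prefix RXR it was -1.65 and -3.13. The counts cover whole genes, so transcripts that keep the unaltered exons are counted as well.

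Rarb is itself a classical target of retinoic acid receptors through an element in its own promoter, which is why that promoter is shown. In RefSeq's GRCm38.p6 promoter at chr14:16575427-16575726 (minus strand, 250 bases before to 50 bases after a transcript start), the capitals mark a hexamer, 5 bases between and a second hexamer in the same direction:
Rarb: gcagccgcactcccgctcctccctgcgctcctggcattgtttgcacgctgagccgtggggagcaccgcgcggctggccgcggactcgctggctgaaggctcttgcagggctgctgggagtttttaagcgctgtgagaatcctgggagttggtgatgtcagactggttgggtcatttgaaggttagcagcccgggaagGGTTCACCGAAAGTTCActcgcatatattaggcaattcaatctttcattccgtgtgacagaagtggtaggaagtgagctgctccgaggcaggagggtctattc
The hexamer searched for was AGGTCA, or in its place any of the variants GGGTCA, then AGTTCA, and lastly GGTTCA, repeated in the same direction on either strand. Of 32851 promoters of this length, 32 held such a pair at a spacing of 5 bases (0.0974%). Spacings of 1 and 2 bases occurred in 73 (0.222%) and 88 (0.268%). None of the 8 matched promoters among the 12 named higher genes below and none of the 9 among the 12 named lower genes held a pair at any of these spacings.

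The other receptor genes showed smaller differences. Rarg, which encodes retinoic acid receptor gamma, had 4.80, 3.36 and 4.33 CPM in dKO sums, against 5.27, 7.13 and 6.96 CPM in control sums. The groups did not overlap, and dKO 1 came close to control 1, and the log2 fold change was -0.63 (SE 0.253, adjusted p = 0.521). Rxra, Rara and Rxrb overlapped between the groups, with log2 fold changes of -0.40, -0.20 and -0.03. All 6 receptor genes thus had negative values and a median of -0.51, of which 2 are the targeted genes, and none passed the test.

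Cyp26b1, the enzyme that degrades retinoic acid in the developing brain, had 14.9, 10.6 and 15.4 CPM in dKO sums, against 33.9, 28.7 and 27.1 CPM in control sums. Every dKO sum was far below every control sum, in both prefixes. The log2 fold change was -1.13 (SE 0.191, adjusted p = 0.295 by edgeR's quasi-likelihood test), while DESeq2 called it. Crabp2, a carrier that delivers retinoic acid to its receptors, had 15.1, 10.4 and 8.97 CPM in dKO sums, against 13.9, 19.97 and 25.5 CPM in control sums. Its groups overlapped through sum 1. Its mean log2 difference was -1.52 in orbital tissue and 0.06 in each of the other regions, where the prefixes went opposite ways. Medial and dorsal levels were higher in dKO 1 than in control 1, and lower in dKO within the prefix RXR. The difference between regions did not pass (adjusted p = 0.0658 by edgeR's quasi-likelihood test of the interaction). Crabp2 is also a marker of meningeal fibroblasts, whose list is given below. Of the synthesis genes, Aldh1a3 had 1.46, 2.52 and 1.79 CPM in dKO sums, against 1.18, 0.372 and 1.26 CPM in control sums. Its values were higher in every dKO sum, at an adjusted p of 0.591 by the same test. Aldh1a2, the synthesis enzyme of the meninges, had a log2 fold change of 0.32 and overlapping groups. Over 20 measured genes of retinoic acid metabolism and transport, 0 were higher and 2 lower at an unadjusted p under 0.05, with a median of 0.04. Over 17 measured response genes, 1 was higher and 5 lower, with a median of -0.27. Over all genes 3.94% were higher and 5.09% lower. Those 5 were Cyp26b1, the targeted Rarb itself, Crabp2, the dopamine receptor gene Drd2 (-0.68) and Rarres1 (-0.86), and the higher one was Tshz1 (0.67). None of the genes of these lists passed the adjusted threshold.

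The 4 genes that rose in dKO were all predicted genes with no given role. Gm6356 (ENSMUSG00000091400, chr14:6965449-6973818, minus strand) had 2801, 3611 and 4544 fragments in dKO sums, against 2, 2 and 0 in control sums. It was present in all 3 mutant sums and at or near 0 in all controls, and its adjusted p was 9.33e-05 by edgeR's quasi-likelihood test. Summed over each genotype, the ratio of its depth-scaled counts was 3200 (exact binomial interval at 95%, 1250 to 11700, which covers counting error only). Gm10340 (chr14:3133997-3141609, plus strand) had 107, 138 and 155 fragments in dKO sums, against 1, 1 and 1 in control sums. The ratio was 156 (52.8 to 758), and the adjusted p was 0.00499. Gm3373 (chr14:5718336-5741577, minus strand) had 119, 219 and 232 fragments in dKO sums, against 6, 3 and 5 in control sums. The ratio was 47.5 (28.1 to 87.4), and the adjusted p was 0.0089. Gm10704 (chr3:88576410-88577139, minus strand) had 638, 926 and 802 fragments in dKO sums, against 32, 16 and 11 in control sums. Its ratio was 46.8 (36.1 to 61.7) and its adjusted p 0.00362. Gm6356 and Gm10704 passed under every alternative tried. The calls of Gm10340 and Gm3373 were lost without dKO 1 (adjusted p = 0.0839 for both), without control 1 (0.0672 for both), within the prefix RXR (0.0641 for both) and without the medial libraries (0.0846 and 0.0814). That of Gm3373 was also lost without control 3 (0.0573), without the orbital libraries (0.113), with sex as a term (0.0679), with limma-voom (0.0548) and with no title prefix (0.0602). The fits without dKO 1, without control 1 and within RXR are not separate checks. The prefix RAR holds only dKO 1 and control 1, so with either left out the genotype effect comes from the RXR sums alone. Relative to depth, dKO 1, the deepest mutant sum, had the lowest mutant level of all 4 genes. The fitted log2 fold changes were 11.39 for Gm6356, 5.51 for Gm10704, 6.99 for Gm10340 and 5.38 for Gm3373, and they depend on the prior count where controls hold a few fragments.

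The 3 called genes on chromosome 14 sit at its start, on the same chromosome as Rarb and ahead of it. Between 3 and 8 Mb, a window chosen after these values were seen, 42 genes were tested, of which 41 are predicted genes. At an unadjusted p under 0.05, 10 of them were higher in dKO and 15 lower, which is 59.5% of the window against 9.03% of all genes. Gm3411, for example, had 3.64, 10.1 and 10.6 CPM in dKO sums, against 1.23, 0.967 and 1.53 CPM in control sums. Gm3752 had 2.12, 0.121 and 0.072 CPM in dKO sums, against 5.06, 5.66 and 8.66 CPM in control sums. In both genes dKO 1 lay between the other dKO sums and the controls, and neither passed the adjusted test (adjusted p = 0.259 and 0.365). This end of chromosome 14 is known for many near-identical gene copies, among which fragments cannot be placed with certainty, so each gene's value is uncertain. Within 10 Mb of Rarb, 14 of 116 tested genes had an unadjusted p under 0.05 (12.1%), against 9.01% of the rest. That window shares 12 genes with the one at the chromosome's start, and without them 8 of 104 had such a p (7.69%). Within 10 Mb of Rxrg on chromosome 1 these were 28 of 204 (13.7%), against 8.98% of the rest, and none was called.

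**Figure D1:**
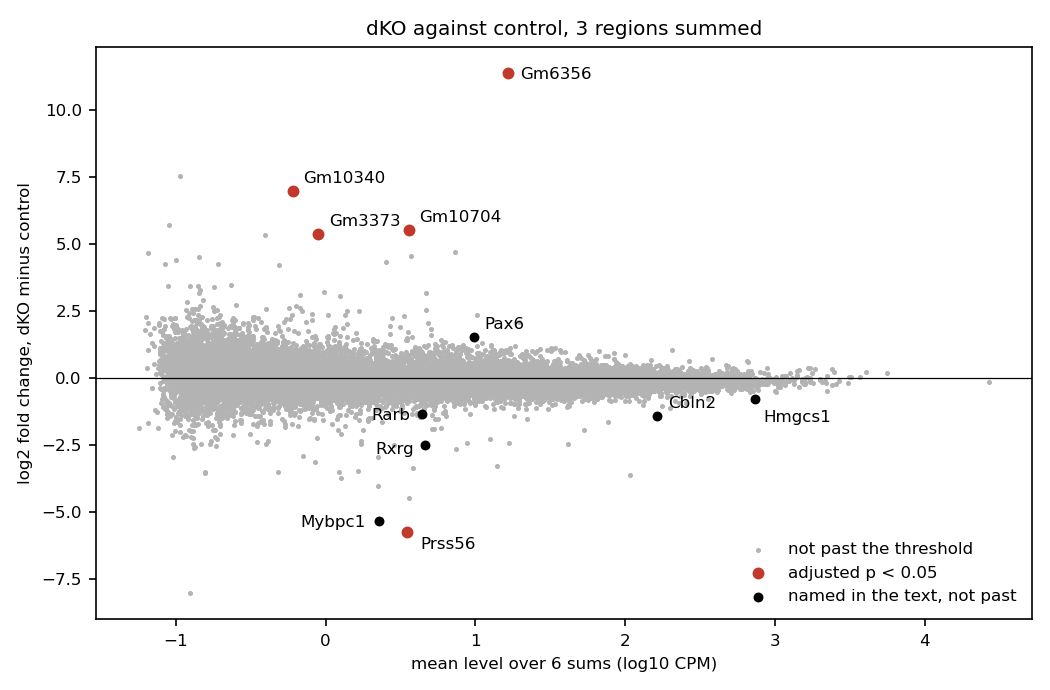
Log2 fold change of dKO minus control (y axis) against the mean level over the 6 sums in log10 CPM (x axis), 1 point per tested gene. Red points are the 5 genes past the adjusted threshold, 4 predicted genes above and Prss56 below the bulk; black points are other genes named in the text.

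Prss56 was the only gene that fell. It encodes a secreted serine protease and had 0.188, 0.0301 and 0.072 CPM in dKO sums, against 17.5, 2.44 and 0.908 CPM in control sums. Controls were uneven, and even the lowest of them lay above all dKO sums. The log2 fold change was -5.75 (SE 0.5996, adjusted p = 0.041 by edgeR's quasi-likelihood test). Of its control fragments 99.4% came from orbital tissue, where the control libraries held 45.7, 7.04 and 2.43 CPM. The call was lost without dKO 1 (adjusted p = 0.254), dKO 2 (0.0777) or control 1 (0.337), with sex as a term (0.673), with limma-voom (0.0553), with no title prefix (0.407), within the prefix RXR (0.329) and without the medial libraries (0.277). Over all alternatives its adjusted p ran from 1.45e-20 to 0.673. Here too the fits without dKO 1, without control 1 and within RXR all rest on the same RXR sums.

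Mybpc1, which encodes a myosin-binding protein, had 0.102, 0.0603 and 0.113 CPM in dKO sums, against 9.30, 3.49 and 0.658 CPM in control sums. Its controls stood in the same order as those of Prss56, 98.5% of their fragments were orbital, and it did not pass (log2 fold change -5.31, SE 0.783, adjusted p = 0.259). Zpld1 had a log2 fold change of -3.45 and the same order of controls. It had 0.313, 0.211 and 0.185 CPM in dKO sums, against 6.03, 2.85 and 0.313 CPM in control sums, so that dKO 1 and control 3 were level. Prss56, Mybpc1 and Zpld1 belong to a list of 16 measured markers of olfactory bulb and ensheathing glia. In it 1 gene was higher and 8 lower at an unadjusted p under 0.05, beside 3.94% and 5.09% of all genes. The list's median was -0.32. Without the orbital libraries 1 of 14 was lower (6.47% of all genes), 11 of the 14 had positive values and the median was 0.23. The count of 8 was 5 without dKO 2, without dKO 3 or with sex as a term, beside 1.47%, 2.31% and 1.56% of all genes. It was 3 of 12 in the fit of 18 libraries (5.64% of all genes). The list's summed level was 704, 726 and 586 CPM in dKO sums, against 716, 730 and 757 CPM in control sums, and its part in the result for Prss56 was not tested. Eomes, the list's single member higher at an unadjusted p under 0.05, marks mitral cells of the bulb and also intermediate progenitors of the cortex. In bulk tissue, fewer cells of a type and less RNA per cell cannot be told apart.

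Beyond the 5 called genes, the 12 higher and 12 lower genes with the lowest p were read one by one (mean of at least 1 CPM, same direction within both prefixes, no predicted genes). Prss56 and Mybpc1 head the lower ones, which also hold Cyp26b1. None of the other 22 passed the adjusted threshold in edgeR, where their adjusted p was 0.162 to 0.320. DESeq2 called all 12 higher genes and all 12 lower ones. It was run on the same sums by which they were chosen, so its calls are no separate support. In the fit of 18 libraries with the sum as a random block, Ptx3, Veph1, Impdh1, Acat2 and Dynll1 passed.

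Pax6, a transcription factor of radial glia, had 19.6, 12.1 and 12.2 CPM in dKO sums, against 5.47, 4.46 and 4.78 CPM in control sums. The lowest dKO sum was well above the highest control, with a log2 fold change of 1.54 (SE 0.201, adjusted p = 0.162 by edgeR's quasi-likelihood test). Sema5b, a guidance protein gene of the semaphorin family, had 38.6, 46.1 and 47.3 CPM in dKO sums, against 17.1, 20.1 and 22.5 CPM in control sums. Its spread within a genotype was small beside the gap, and the log2 fold change was 1.15 (SE 0.151). Hgf, a growth factor gene that signals through the receptor Met, had 5.47, 3.99 and 4.39 CPM in dKO sums, against 0.755, 1.24 and 0.929 CPM in control sums. The groups lay well apart, with a log2 fold change of 2.25 (SE 0.309), and the difference was largest in medial tissue. Fam210b, a mitochondrial membrane protein gene, had 256, 278 and 305 CPM in dKO sums, against 165, 113 and 124 CPM in control sums. Its groups did not overlap, with a log2 fold change of 1.08 (SE 0.174). Mfng, a Fringe enzyme that modifies Notch receptors, had 24.9, 17.55 and 18.99 CPM in dKO sums, against 11.8, 9.09 and 9.22 CPM in control sums.

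Megf10, an engulfment receptor gene of astrocytes, had 8.20, 9.87 and 8.86 CPM in dKO sums, against 3.0, 4.62 and 3.08 CPM in control sums. Veph1 had 8.08, 3.99 and 4.80 CPM in dKO sums, against 1.31, 1.49 and 0.491 CPM in control sums. Ptx3, a secreted pattern recognition protein gene, had 11.9, 6.13 and 8.01 CPM in dKO sums, against 4.05, 3.19 and 2.27 CPM in control sums. In these 3 genes no dKO sum reached down to a control, and dKO 1 was the highest sum of Veph1 and Ptx3. Veph1 and Ptx3 lie side by side on chromosome 3 on opposite strands, Ptx3 (66219910 to 66225805) within the span of Veph1 (66053558 to 66296837). The counting ignored strand, so fragments of the pair cannot be told apart with certainty. Slc14a2, a urea transporter gene, had a log2 fold change of 2.06, and the microRNA host transcript Mir99ahg one of 1.02. In Mir99ahg the lowest dKO sum (20.3 CPM) and the highest control (20.6 CPM) overlapped, with the same direction within each prefix. The mitotic kinase genes Nek2 and Pbk complete the 12 and are taken up with the cell cycle.

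**Figure D2:**
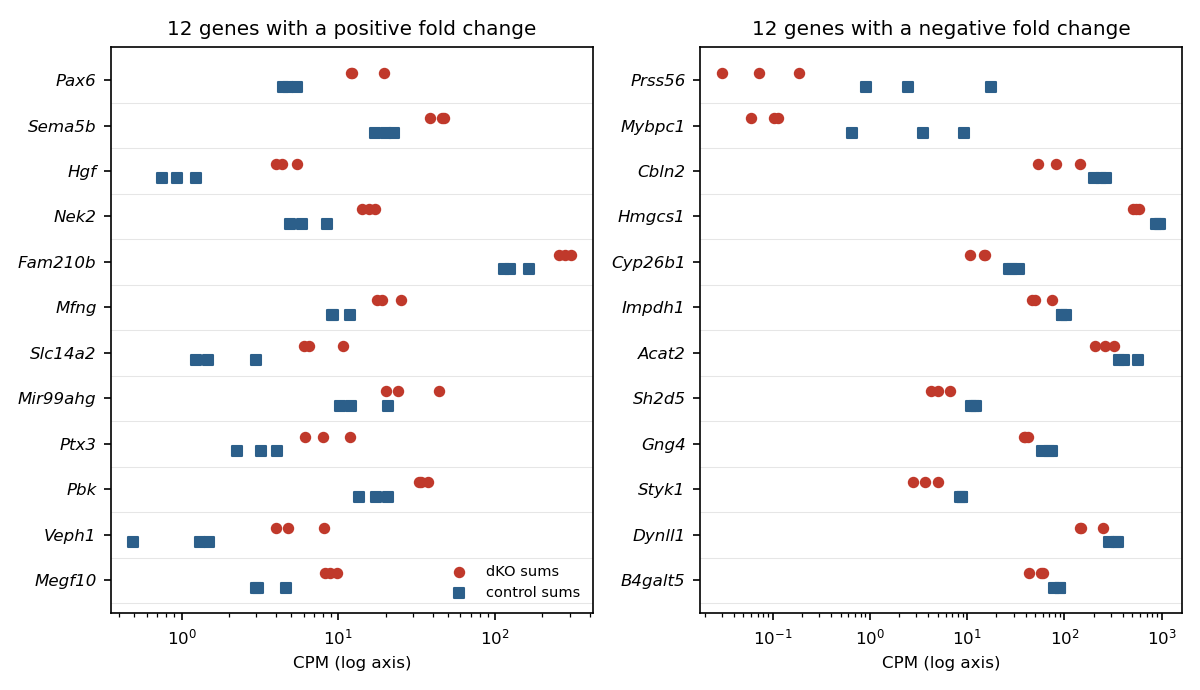
Level of each of 12 genes with positive (left) and 12 with negative fold changes (right) in every sum, in CPM on a log axis. Red circles are the 3 dKO sums and blue squares the 3 control sums. In 23 of the 24 genes the groups do not overlap, which the choice by p and direction favours, and Mir99ahg is the exception.

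Among the lower genes, Cbln2 encodes a secreted cerebellin that bridges presynaptic neurexins and postsynaptic GluD receptors. It had 146, 53.0 and 81.8 CPM in dKO sums, against 266, 203 and 236 CPM in control sums. All dKO sums lay below all controls, with dKO 1 highest among them, and the log2 fold change was -1.42 (SE 0.237, adjusted p = 0.295 by edgeR's quasi-likelihood test). The log2 difference was -0.89 in the orbital region, -1.56 in the medial and -2.39 in the dorsal one. Dynll1, a light chain of the dynein motor, had 249, 147 and 145 CPM in dKO sums, against 337, 352 and 290 CPM in control sums. Here dKO 1 stood between the other mutants and the controls. Impdh1, which catalyses a step of guanine nucleotide synthesis, had 73.8, 46.7 and 49.97 CPM in dKO sums, against 105, 95.0 and 95.5 CPM in control sums. Control values varied by little, and dKO 1 was again the highest mutant sum.

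Gng4, a G protein gamma subunit gene, had 39.8, 41.8 and 38.7 CPM in dKO sums, against 59.1, 75.1 and 69.8 CPM in control sums. B4galt5, a galactosyltransferase gene of glycolipid synthesis, had 43.0, 57.6 and 60.4 CPM in dKO sums, against 78.5, 90.9 and 90.2 CPM in control sums. Their log2 fold changes were -0.76 and -0.70, with differences of -0.57 and -0.87 within the prefix RAR and of -0.85 and -0.62 within RXR. Sh2d5 had 6.74, 4.26 and 4.99 CPM in dKO sums, against 10.9, 11.8 and 12.4 CPM in control sums. Styk1, a kinase-like membrane protein gene, had 5.05, 2.80 and 3.65 CPM in dKO sums, against 8.83, 8.93 and 8.41 CPM in control sums. Both had their dKO values well below all controls, and control sums of Styk1 varied by little. Hmgcs1 and Acat2 belong to sterol synthesis and follow below.

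Genes of mitosis had higher values in the dKO sums as a group, and no member passed the adjusted threshold in edgeR. Of 35 measured genes of the cell cycle, 27 were higher and 0 lower at an unadjusted p under 0.05, where 3.94% of all genes were higher. Their median log2 fold change was 0.96, and in 26 of them every dKO sum lay above every control, against 5.66% of all genes. DESeq2 called 21 of the 35 as higher, and the fit of 18 libraries 2, beside 1.08% and 0.132% of all genes. Nek2, a kinase that parts the centrosomes, had 17.2, 14.1 and 15.7 CPM in dKO sums, against 8.47, 5.85 and 4.89 CPM in control sums. Pbk, a mitotic kinase gene, had 37.5, 32.7 and 33.5 CPM in dKO sums, against 20.8, 17.3 and 13.5 CPM in control sums. Cdc20, the activator of the anaphase-promoting complex, had 37.2, 30.0 and 31.1 CPM in dKO sums, against 24.2, 14.8 and 13.2 CPM in control sums. In all 3 genes the order of the controls was the same, with control 1 highest and control 3 lowest. Cdk1, the kinase that drives entry into mitosis, had 26.9, 25.8 and 24.5 CPM in dKO sums, against 18.8, 14.01 and 12.15 CPM in control sums. The dKO sums of Cdk1 varied by little, and the log2 fold change was 0.80 (SE 0.179, adjusted p = 0.349).

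Values differed among the members, of which some are given here as examples chosen after their values were seen. Of genes that act in mitosis, Bub1b (1.21), Ccnb1 (1.09), Aurka (0.99), Aurkb (0.97) and Mki67 (1.22) had log2 fold changes above the median of 0.96. The mitotic gene Cdk1, given above, lay below that median, and members were not counted by class. Of genes that act in DNA replication, the log2 fold change was 0.30 for Mcm6, 0.30 for Mcm5, 0.25 for Mcm2, 0.16 for Mcm3, 0.24 for Pcna and 0.10 for Tyms, and none of these 6 had an unadjusted p under 0.05. Over the whole list, the summed level was 1319, 1046 and 1049 CPM in dKO sums, against 937, 774 and 622 CPM in control sums. With sex as a term 23 of the 35 stayed higher at an unadjusted p under 0.05, beside 2.35% of all genes. Without the medial libraries 16 did (2.73% of all genes), with a median of 0.66. Without control 3 there were 26 (4.41%), with a median of 0.73.

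The promoters of Cdc20 and Cdk1 show letters that recur before genes of this list. Capitals mark TTTGAA, the core of the cell cycle homology element, and CCAAT or its reverse complement ATTGG. The promoters are RefSeq's GRCm38.p6 entries at chr4:118437294-118437593 and chr10:69352863-69353162, both on the minus strand:
Cdc20: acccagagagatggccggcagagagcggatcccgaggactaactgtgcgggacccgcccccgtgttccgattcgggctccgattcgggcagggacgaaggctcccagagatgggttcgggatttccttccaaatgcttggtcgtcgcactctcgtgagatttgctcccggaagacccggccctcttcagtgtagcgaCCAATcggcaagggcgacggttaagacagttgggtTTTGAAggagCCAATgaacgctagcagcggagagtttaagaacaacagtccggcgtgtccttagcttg
Cdk1: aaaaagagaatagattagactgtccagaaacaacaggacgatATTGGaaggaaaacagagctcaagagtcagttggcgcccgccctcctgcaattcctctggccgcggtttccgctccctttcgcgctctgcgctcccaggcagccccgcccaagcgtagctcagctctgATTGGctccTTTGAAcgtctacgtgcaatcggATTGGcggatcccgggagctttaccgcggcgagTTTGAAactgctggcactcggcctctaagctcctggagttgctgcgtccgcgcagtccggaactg
Of the 35 genes, 29 matched a promoter entry. TTTGAA on either strand was found in 17 of the 29, against 20.2% of all genes with a promoter entry, and CCAAT in 26, against 41.1%. These are letters in a window and were not measured as sites.

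Markers of the cortical progenitors (radial glia, which divide at the ventricle, and intermediate progenitors) had values in the same direction. Of 21 measured, 14 were higher and 0 lower at an unadjusted p under 0.05, beside 3.94% and 5.09% of all genes. The median was 0.64, and 18 had a positive fold change, against 46.5% of all genes. Eomes, of intermediate progenitors, had 12.4, 6.64 and 6.54 CPM in dKO sums, against 1.23, 1.36 and 0.146 CPM in control sums. Every dKO sum was several times the highest control, with a log2 fold change of 3.20 (SE 0.634, adjusted p = 0.320 by edgeR's quasi-likelihood test). By region, Eomes differed most in medial tissue, with 24.1, 9.74 and 13.2 CPM in dKO libraries, against 0.926, 0.148 and 0 CPM in control libraries. Tfap2c had 3.17, 2.78 and 2.64 CPM in dKO sums, against 0.453, 0.988 and 0.0626 CPM in control sums. Hopx, Gas1 and Lhx2 had log2 fold changes of 1.12, 0.70 and 0.68 and also did not overlap. The 3 members with negative values were Fabp7 (-0.01), a fatty acid binding protein gene of radial glia, and the Notch targets Hes1 (-0.11) and Hes5 (-0.09). The list's summed level was 1485, 1330 and 1189 CPM in dKO sums, against 992, 1140 and 1188 CPM in control sums, so that dKO 3 and control 3 were level. DESeq2 called 7 members higher, beside 1.08% of all genes. Without the medial libraries 5 were higher at an unadjusted p under 0.05 (2.73% of all genes), with a median of 0.41. With sex as a term 7 were higher (2.35%), and without dKO 1 there were 8 (3.03%).

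Genes of sterol synthesis had values in the opposite direction. Of 24 measured genes, 15 were lower and 1 higher at an unadjusted p under 0.05, where 5.09% of all genes were lower, and the median was -0.48. In 13 of them every dKO sum lay below every control, against 7.54% of all genes. Hmgcs1, which makes the precursor of mevalonate, had 587.2, 505.6 and 551.8 CPM in dKO sums, against 966, 948 and 880 CPM in control sums. The sums of each genotype were tight, and the log2 fold change was -0.77 (SE 0.129, adjusted p = 0.295 by edgeR's quasi-likelihood test). Nsdhl, an X-linked enzyme gene of the later steps, had 48.5, 31.1 and 32.7 CPM in dKO sums, against 77.6, 69.2 and 50.5 CPM in control sums. Control 3 came close to dKO 1, and the log2 fold change was -0.83 (SE 0.172). Sqle, which oxidises squalene, had 182, 202 and 250 CPM in dKO sums, against 362, 378 and 266 CPM in control sums. The highest dKO sum of Sqle stood below the lowest control.

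Fdps (-0.73), Mvd (-0.72), Idi1 (-0.69), Hsd17b7 (-0.64) and Lss (-0.51) were lower in the same way. The regulator gene Srebf2 (-0.23) overlapped between the groups. Acat2, not in that list, makes acetoacetyl-CoA ahead of Hmgcs1 and had 324, 208 and 259 CPM in dKO sums, against 574, 414 and 364 CPM in control sums. It had a log2 fold change of -0.77 and the groups did not overlap. The list's summed level was 2271, 2664 and 2852 CPM in dKO sums, against 3841, 3884 and 3310 CPM in control sums. The log2 difference of this sum was -0.76 in the prefix RAR and -0.38 in RXR. The count of lower members was 6 without dKO 1 or without control 1, fits that both rest on the RXR sums. In these fits 4.98% and 4.86% of all genes were lower. The count was 8 without dKO 2 or without the medial libraries (1.47% and 3.62% of all genes), and 3 with sex as a term (1.56%). DESeq2 called 3 members lower and 1 higher, beside 0.777% and 1.08% of all genes.

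The promoters of Hmgcs1 and Nsdhl are shown for the CCAAT letters that all matched members share, at chr13:119690101-119690400 (plus strand) and chrX:72918271-72918570 (plus strand) of GRCm38.p6 in RefSeq. Capitals mark CCAAT or ATTGG:
Hmgcs1: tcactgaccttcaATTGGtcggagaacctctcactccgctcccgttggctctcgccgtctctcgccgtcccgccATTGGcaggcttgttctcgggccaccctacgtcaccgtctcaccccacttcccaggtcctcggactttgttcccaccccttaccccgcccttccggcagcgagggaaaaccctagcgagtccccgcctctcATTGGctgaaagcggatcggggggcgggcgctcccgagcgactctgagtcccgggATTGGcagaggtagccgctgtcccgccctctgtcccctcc
Nsdhl: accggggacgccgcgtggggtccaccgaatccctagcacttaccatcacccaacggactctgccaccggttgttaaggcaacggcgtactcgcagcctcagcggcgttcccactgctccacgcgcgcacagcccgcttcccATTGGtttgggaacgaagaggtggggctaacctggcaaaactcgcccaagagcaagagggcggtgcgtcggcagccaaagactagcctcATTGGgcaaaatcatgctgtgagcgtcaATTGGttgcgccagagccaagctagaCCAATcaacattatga
Of the 24 genes, 16 matched a promoter entry, and all 16 held CCAAT on either strand, against 41.1% of all genes. TTTGAA was in 1 of the 16, the promoter of Pmvk. CCAAT is not particular to this list, as it was also in 26 of the 29 matched cell cycle genes. A longer motif, meant for sterol genes, was searched for in the same windows. It was found in 0 of the 16, against 0.0999% of all genes with a promoter entry. Only 1 exact string without variants was searched for. A string this rare is unlikely to occur in any 16 genes, so the 0 cannot show whether sterol genes share such letters.

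**Figure D3:**
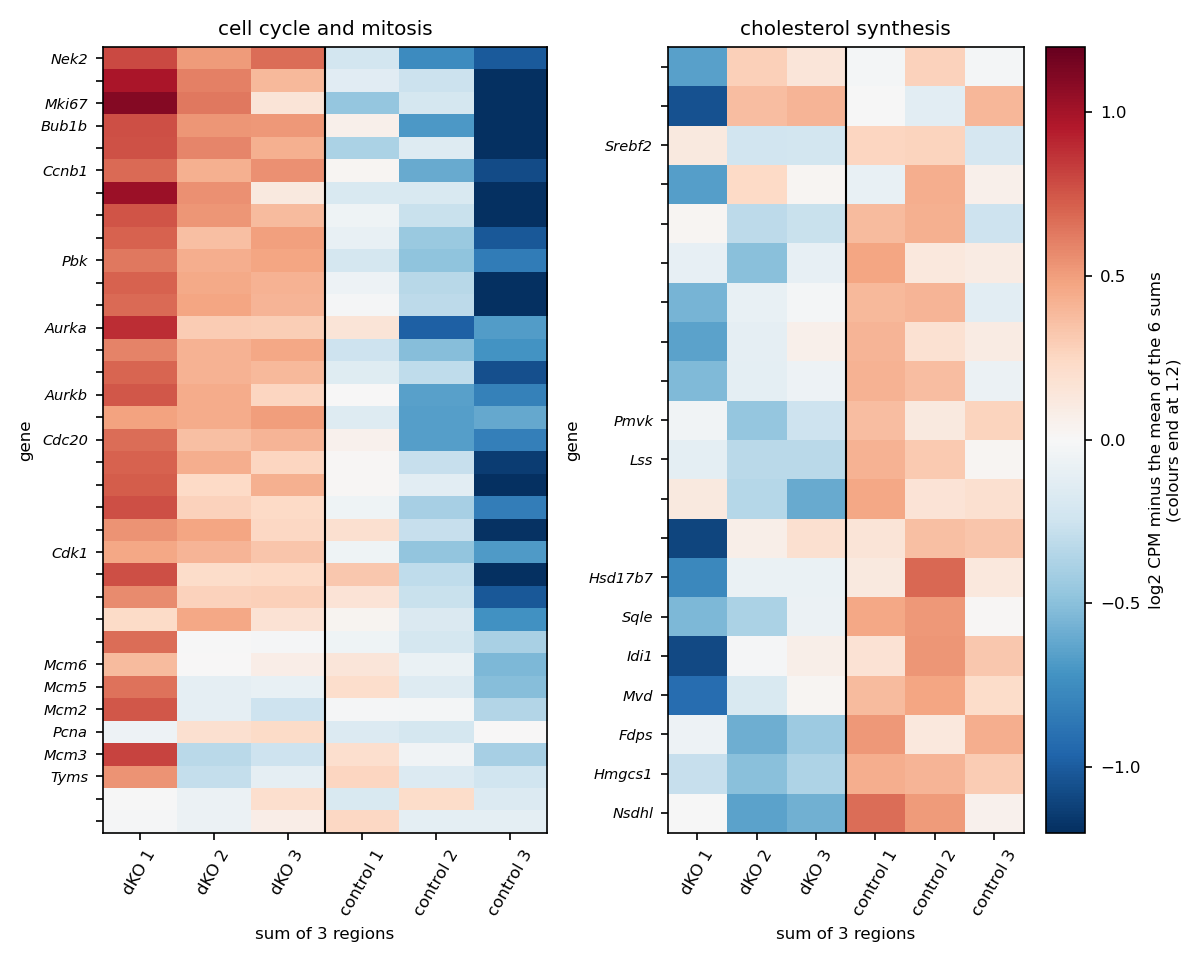
Level of the 35 measured genes of the cell cycle list (left) and of 20 of the 24 of the cholesterol synthesis list (right) in every sum, with names for the genes named in the text, as log2 CPM minus the gene's mean over the 6 sums, with colours ending at 1.2. The 3 dKO columns stand left of the line and the 3 control columns right of it; most genes of mitosis are red in dKO and blue in the controls, and most sterol genes are blue in dKO.

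Genes of presynaptic vesicle release had mostly negative values. Of 28 measured, 24 had a negative fold change, against 53.5% of all genes, and the median was -0.24. In this list 0 were higher and 6 lower at an unadjusted p under 0.05, beside 3.94% and 5.09% of all genes. Syn2, a phosphoprotein that tethers synaptic vesicles, had 76.0, 66.2 and 71.5 CPM in dKO sums, against 109.5, 115.5 and 109.5 CPM in control sums. The groups were tight and apart, with a log2 fold change of -0.65 (SE 0.138, adjusted p = 0.335). Syn1 (-0.40), Stx1a (-0.47) and Syt1 (-0.34) also had every dKO sum below every control. The other 2 of the 6 overlapped between the groups. Slc17a7, a vesicular glutamate transporter gene, had 38.2 CPM in dKO 1 and 36.8 CPM in control 1, and Cplx2 (-0.43), a complexin gene, had 139 CPM in dKO 2 and 133 CPM in control 1. The count of 6 was 1 without the medial libraries (3.62% of all genes lower), without dKO 2 (1.47%) or without dKO 3 (2.31%). It was 2 with sex as a term (1.56%), and 4 without control 3 (5.85%) or without the dorsal libraries (4.83%). It was 11 without control 2 (8.09%) and 13 without the orbital libraries (6.47%).

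Of 36 measured glutamate receptor and postsynaptic scaffold genes, 33 had negative values, against 53.5% of all genes, with a median of -0.19. Only 1 was higher and 3 lower at an unadjusted p under 0.05, beside 3.94% and 5.09% of all genes. The lower ones were Grm7 (-0.94), Shank1 (-0.56) and the obligatory NMDA receptor subunit gene Grin1 (-0.36), and the higher one was Grin2c (2.27), another NMDA receptor subunit gene. Among 34 synaptic organizers the signs were mixed. Beside Cbln2, the related Cbln1 had 9.64, 11.3 and 14.7 CPM in dKO sums, against 16.3, 19.7 and 20.9 CPM in control sums. Tenm4, a teneurin adhesion gene, had 67.3, 52.2 and 38.7 CPM in dKO sums, against 30.8, 24.7 and 24.6 CPM in control sums. Cbln1 was lower and Tenm4 higher without overlap, with log2 fold changes of -0.68 and 0.96. In 12 GABA-A receptor genes the median was -0.19. Of these 0 were higher and 3 lower at an unadjusted p under 0.05, beside the same shares of all genes. Among 28 potassium channel genes, Kcnn3 (1.41) and Kcnn2 (0.79), which encode calcium-activated channels, and Kcnd3 (0.50) were higher without overlap, beside 5.66% of all genes. Of the 28, 1 was lower without overlap, beside 7.54% of all genes, and the median was 0.00.

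Among the guidance genes, Sema5b had the lowest p of 31 semaphorins, plexins and neuropilins, and Sema3c (0.71) and Sema5a (1.01) were also higher in every dKO sum. Plxnd1 (-0.60), Sema4f (-0.39) and Sema4g (-0.39) were lower at an unadjusted p under 0.05, the first with overlapping groups. Of the 31, 3 were higher and 3 lower by that measure, beside 3.94% and 5.09% of all genes. The list's median was 0.03. For 34 genes of Ephs, ephrins, netrins, Slits and Robos it was 0.00. Of the 34, 0 were higher and 2 lower at an unadjusted p under 0.05, beside 3.94% and 5.09% of all genes. These were Ephb6 (-0.74), whose groups overlapped, and Epha8 (-0.86), which was lower in every dKO sum. For markers of cortical layers, the medians were 0.02 over 16 upper layer and -0.12 over 18 deep layer genes. Of 27 area patterning genes, Pax6, Lhx2 and Sp8 (1.25) were higher and Cyp26b1 and Nr2f2 (-0.55) lower at an unadjusted p under 0.05. Over all genes these shares were 3.94% and 5.09%.

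Markers of other cell types were read for cells that a dissection could bring in. Interneuron genes had a median of 0.17 over 20, with 5 higher and 1 lower at an unadjusted p under 0.05, beside 3.94% and 5.09% of all genes. Dlx2, a transcription factor of the ganglionic eminences, had 117, 62.8 and 58.0 CPM in dKO sums, against 47.6, 43.1 and 49.4 CPM in control sums. The groups did not overlap, and dKO 1 was far above the rest, as it was for Sp9 (39.5 CPM, against 10.2 to 11.5 CPM in the control sums). Over 20 striatal markers the median was -0.26. Of the 20, 1 was higher and 4 lower at an unadjusted p under 0.05, beside 3.94% and 5.09% of all genes. The lower ones were the targeted Rarb and Rxrg, Drd2 (-0.68) and Penk (-0.41). The log2 difference of the list's summed level was 0.17 in the prefix RAR and -0.14 in RXR. Meningeal fibroblast markers had a summed level of 2824, 2517 and 2437 CPM in dKO sums, against 2096, 3054 and 3799 CPM in control sums. Its log2 difference was 0.43 in the prefix RAR and -0.46 in RXR, and the median over 21 genes was -0.13. Of the 21, 17 had negative values, against 53.5% of all genes. Further, 0 were higher and 3 lower at an unadjusted p under 0.05, beside 3.94% and 5.09% of all genes. Those 3 were Crabp2 and the transcription factor genes Foxd1 (-1.01) and Foxc1 (-0.55). For Foxd1 and Foxc1 the log2 difference in orbital tissue was -1.47 and -1.02, and within the prefix RAR it was -1.19 and -0.38, within RXR -0.90 and -0.62. Choroid plexus markers had a median of -0.45 over 9 genes, and a summed level of 134, 120 and 160 CPM in dKO sums, against 130, 172 and 219 CPM in control sums. The median was 0.14 over 18 markers of astrocytes, -0.09 over 16 of microglia, 0.13 over 19 of endothelial cells and pericytes, -0.17 over 13 of the oligodendrocyte lineage and 0.19 over 8 of red blood cells. Of the astrocyte markers 4 were higher and 1 lower at an unadjusted p under 0.05, beside the same shares of all genes. Among them were Aldoc (0.41) and the lower S100b (-1.05). The astrocyte markers had a summed level of 2876, 2617 and 2682 CPM in dKO sums, against 2105, 2762 and 3412 CPM in control sums. The part of these cells in the differences above was not tested.

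Genes encoded in mitochondrial DNA had positive values in 12 of 12, against 46.5% of all genes, with a median of 0.42. Of the 12, 2 were higher at an unadjusted p under 0.05, beside 3.94% of all genes. The summed level of the 12 was 5009, 11680 and 7182 CPM in dKO sums, against 4828, 6825 and 6598 CPM in control sums. The groups overlapped in all 12, and dKO 2 stood above every other sum. Nuclear genes of the respiratory chain did not share this, with a median of -0.11 over 32 genes. Cytosolic ribosomal proteins had a median of 0.13 over 40, 3 of them higher at an unadjusted p under 0.05, beside 3.94% of all genes. Over 21 immediate early genes the median was -0.08. Ccn1 (0.84), Btg2 (0.93) and Ier5 (0.64) were higher and Egr3 (-1.21) lower at an unadjusted p under 0.05, beside 3.94% and 5.09% of all genes. Of 17 genes of nitric oxide and cGMP signalling, 1 was lower at an unadjusted p under 0.05, about the share of all genes (5.09%). That was Gucy1b1, a subunit of soluble guanylate cyclase, with 112, 98.4 and 99.7 CPM in dKO sums, against 181, 162 and 137 CPM in control sums, a log2 fold change of -0.63.

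**Figure D4:**
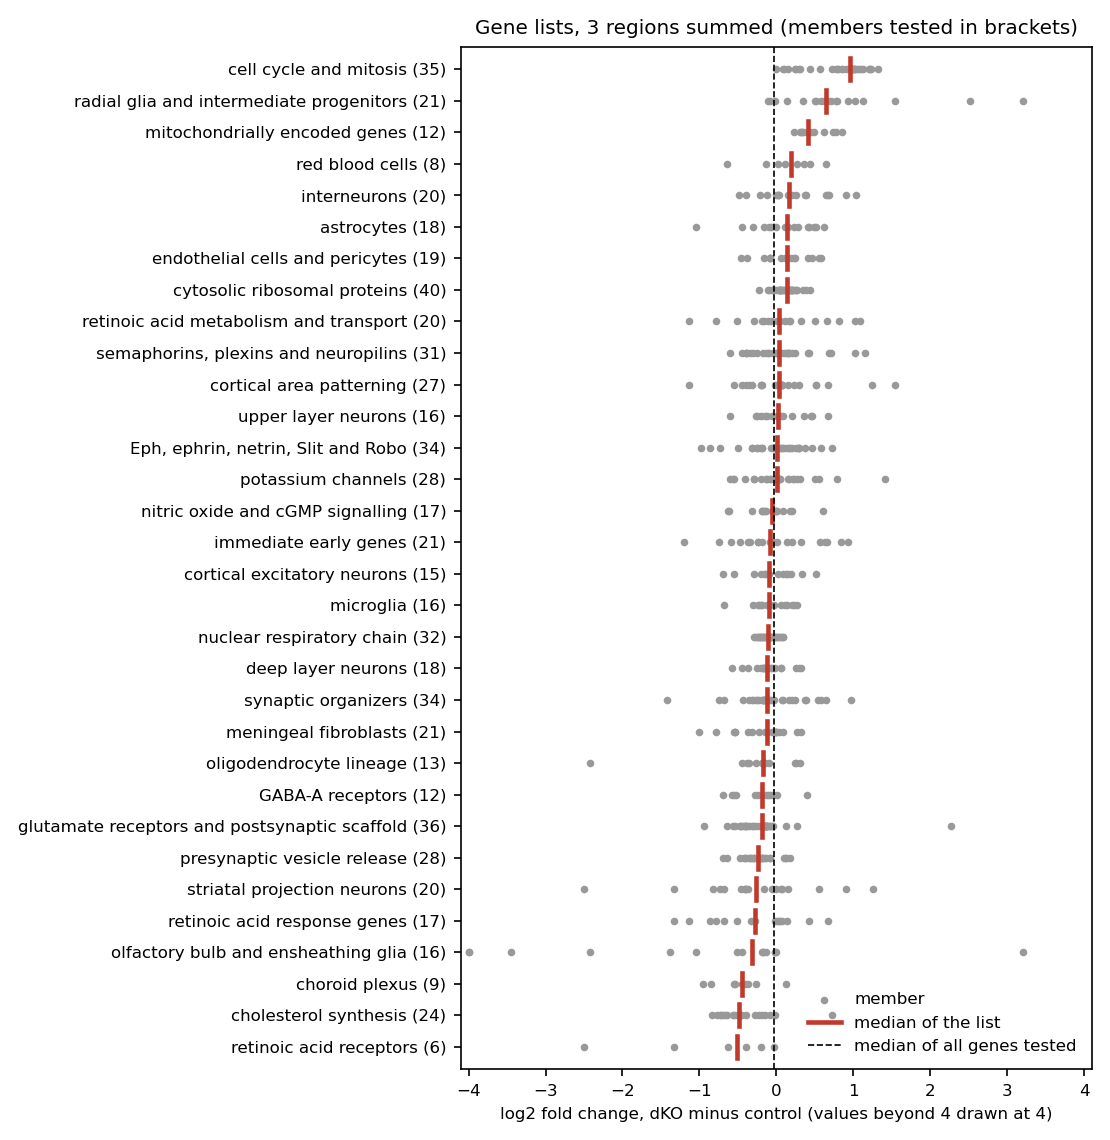
Log2 fold change of dKO minus control for the measured members of 32 gene lists (x axis, values beyond 4 drawn at 4), 1 grey point per gene, with the number measured in brackets. Red bars are list medians and the dashed line the median of all genes tested; cell cycle is highest at 0.96 and retinoic acid receptors lowest at -0.51.

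Since a sum can rest on 1 region, the 12 higher and 12 lower genes were split again by region. In all 12 higher genes the log2 difference was positive in each region and largest in medial tissue. For Pax6 the mean level was 14.3, 23.5 and 7.06 CPM in orbital, medial and dorsal dKO tissue, against 5.43, 4.14 and 5.14 CPM in the same control regions. For Hgf it was 3.67, 9.17 and 1.30 CPM in dKO tissue, against 0.865, 0.981 and 1.13 CPM in control tissue, so that dorsal tissue barely differed. Nek2 differed in all regions, with 14.1, 19.9 and 13.5 CPM in dKO tissue, against 7.79, 5.12 and 6.06 CPM in control tissue. Of the 12 lower genes, Prss56 and Mybpc1 rested on orbital tissue. The other 10 had negative differences in all regions. Hmgcs1 had 584, 453 and 629 CPM in orbital, medial and dorsal dKO tissue, against 745, 978 and 1063 CPM in control tissue. Dynll1 had similar differences in each region, with 185, 177 and 188 CPM in dKO tissue, against 320, 320 and 323 CPM in control tissue.

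Whether the dKO effect differed between regions was tested by an interaction term in the 18 libraries with each sum as a block. By edgeR's quasi-likelihood test 23 of 18730 genes passed (0.123%), and 2998 had an unadjusted p under 0.05 (16%). Of the 24 genes above, Fam210b passed (adjusted p = 0.0451). It had 206, 411 and 233 CPM in orbital, medial and dorsal dKO tissue, against 106.5, 114 and 186.5 CPM in control tissue. For the other 23 genes the adjusted p of the difference was 0.0658 to 0.9955. The count of 23 rests on single sums: it was 0 without dKO 1, 2 or 3 or control 2, 1 without control 3 and 184 without control 1. Counts at an unadjusted p under 0.05 in those fits were 1622, 1517, 3135, 2772, 2442 and 4037, in the same order.

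**Figure D5:**
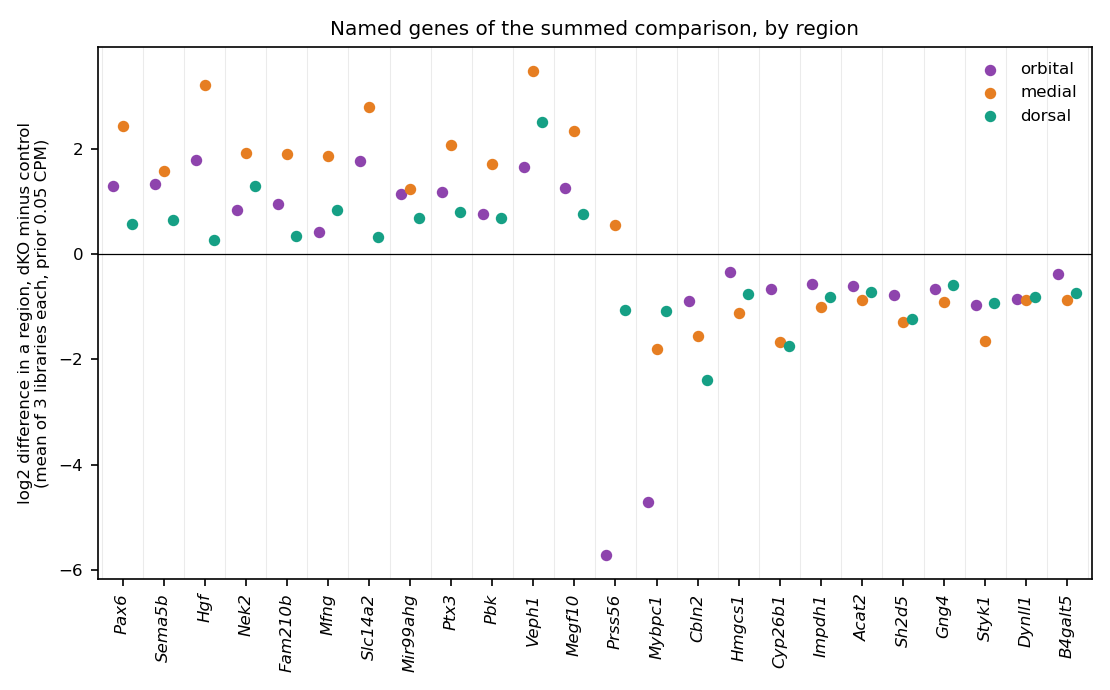
Log2 difference of dKO minus control in each region (y axis, mean of 3 libraries each, prior 0.05 CPM) for the 12 higher and 12 lower genes of the summed comparison. Purple, orange and green points are orbital, medial and dorsal tissue; medial is highest in each of the 12 higher genes, and Prss56 and Mybpc1 lie lowest in orbital tissue.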

How the data were processed

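RNA of frontal cortex tissue was sequenced in 18 libraries, made with a low-input SMART-seq v4 kit and Nextera XT, as pairs of 100 bases, per the labels' protocols and the series' design text. The values are raw counts, fragments assigned to each gene by the authors with featureCounts 1.6.2, which counted pairs and ignored strand, against Ensembl 94 models of GRCm38, per the file headers. Reads were aligned with STAR 2.6, per the submitters' processing notes. The header shows no setting for multiply aligned reads. Of the columns, 18 were matched to samples; another 6 with no matching sample were left unread. A table of gene IDs and symbols matched 54409 of 54532 genes.

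Counts of the 3 regions were added per title prefix, genotype and first index name. They were tested in R 4.3.3 with edgeR 4.0.16 (TMM, filterByExpr with a minimum count of 10 and total of 15, quasi-likelihood F test, prefix and genotype as terms), with Benjamini-Hochberg adjustment over 20083 genes. A standard error is the fold change divided by the root of F. Levels are CPM on TMM-scaled totals, and region differences are log2(CPM + 0.05). The difference between regions was tested in 18 libraries with the sum as a block. DESeq2 1.42.0 and limma 3.58.1 (voom, duplicateCorrelation) were alternatives, as were other scaling, no filter, no prefix, sex as a term, equal depth of regions, and leaving out each sum or region. Adjusted p-values that DESeq2 gave as NA stayed out of its counts. Tests were checked on simulated data. Depth per sum is given in the text, and intervals cover counting error only.

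Named genes were those past an adjusted p of 0.05, then the 12 higher and 12 lower genes with the lowest p that had a mean of at least 1 CPM and the same sign within both prefixes and are not predicted, Y-linked or Xist, up to 3 members per gene list by p, and Rarb and Rxrg. Other list members are given as examples and were chosen after their values were seen. The comparison and the 32 gene lists were chosen with earlier results of these data known. Same-numbered sums share only a number: their deviations from the group means correlated at 0.316, -0.04 and 0.249. Some list members are counted in their lists and otherwise not reported here. Promoters are RefSeq's (GRCm38.p6). Figures were drawn with matplotlib 3.10.9.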

Additional observations from a re-analysis of the deposited data

Results flagged for a closer look

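For 1 named gene the dKO effect differed between regions by the interaction test in the 18 libraries (edgeR's quasi-likelihood test, adjusted over 18730 genes). Fam210b (adjusted p = 0.0451) was higher in dKO in each region, by 1.89 on the log2 scale in medial, 0.94 in orbital and 0.34 in dorsal tissue. This call rests on the fit that gave 0 calls when any single dKO sum was left out.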

How the results depend on the processing

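The count of 5 genes past the adjusted threshold was 5 with DESeq2's size factors in edgeR and with regions scaled to equal depth, and 4 at a threshold of 0.01, with sex as a term (3 of them among the 5) and within the prefix RXR (2 of them). It was 65 with no filter on low counts (39 higher, 26 lower), 359 with DESeq2, 3 with limma-voom, 3 with no title prefix, 3 without the orbital, 2 without the medial and 5 without the dorsal libraries. With 18 libraries and the sum as a random block (correlation 0.321) it was 42, of which 4 are among the 5. Leaving out each sum gave 4 to 9, with 9 without dKO 2 and 8 without control 2, and 2 of the 5 were among them without dKO 1 or without control 1. At an unadjusted p under 0.05 there were 784 genes with sex as a term. A replicate block in place of the prefix gave 6, though same-numbered sums share only a number (correlations in the methods), and all 5 were among them. The count of genes whose effect differed between regions was 0 to 184 when each sum was left out.

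Rarb passed with DESeq2 (-1.31, adjusted p = 0.00602; 0.00602 to 0.9998 over all alternatives). Rxrg passed under none, with log2 fold changes of -3.45 to -1.23 and adjusted p-values of 0.119 to 0.9998. Of the 28 named and called genes, 0 changed sign in 528 values over the alternatives, 21 values lost and 46 gained the threshold. These genes were picked by p, and most also by direction within both prefixes, in these same sums. The 0 is therefore no check of their direction. Gm6356 and Gm10704 passed in all 19 alternatives, Gm10340 in 15, Gm3373 in 10 and Prss56 in 9 of 17. The alternatives without dKO 1, without control 1 and within RXR are counted separately here, though all rest on the same RXR sums. Among other list members, signs turned for Csf1r (0.10) and Aqp1 (0.18) without the orbital libraries, Fcrls (-0.0091) and Rps14 (-0.0562) without the medial ones, and Hbb-bt (-0.0177) with sex as a term. The causes were not tested. With 3 sums per genotype, a gene that passes in 1 tool only rests on that tool's estimate of the spread, and predicted genes with near copies are uncertain at any depth.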
